A study of Bos taurus with 10 samples.

Results

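The genes described here make, store, release and burn fatty acids in the bovine oocyte: enzymes that activate, build, desaturate and elongate fatty acids, enzymes that join them into triacylglycerol, proteins of the lipid droplet, enzymes of beta-oxidation, acyl-CoA thioesterases and fatty acid binding proteins. They were chosen by gene symbol alone, as all probe sets of the Affymetrix bovine array whose single symbol belongs to one of these families, which gave 93 of 24016 probe sets and 70 of the 9155 genes with a symbol. The tested samples were 5 pools of in vitro matured (IVM) oocytes, stripped of cumulus cells after whole cumulus-oocyte complexes had been cultured for 24 h at 39°C under 5% CO2, in TCM-199 that held epidermal growth factor (10 ng/ml) and fetal calf serum (10%). They were set against 5 pools of immature oocytes, denuded and frozen at 0 h. All oocytes were aspirated from 3 to 8 mm follicles of ovaries of slaughtered cows, so each pool mixes animals of unrecorded number, age and genotype, and the groups share no drug treatment or genetic change. A pool was hybridized to 1 array after 2 rounds of amplification, and the values are log2 summaries, 1 per probe set and array, as the authors deposited them.

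Bovine oocytes are rich in lipid droplets, stores of triacylglycerol wrapped in perilipins. A fatty acid is first joined to coenzyme A. It can then be esterified stepwise to glycerol, with DGAT1 or DGAT2 adding the last acyl chain, or enter mitochondria as a carnitine ester and be shortened by repeated cycles of dehydrogenation, hydration, a second dehydrogenation and thiolysis. Peroxisomes shorten some chains by a related cycle, and oxidation of fatty acids is known to be needed for oocyte maturation in several mammals.

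The members did not all move one way. The enzyme of the last step of triacylglycerol synthesis, *DGAT2*, was 63.0-fold lower in IVM oocytes as the ratio of the deposited summaries, and the hydratase *ECHS1*, the thiolase subunit *HADHB*, the isomerase *ECI2*, the peroxisomal thiolase *ACAA1* and 1 probe set of the carrier *FABP5* were 9.63- to 17.8-fold lower. Against these, the elongase *ELOVL7*, the carnitine enzyme *CPT2*, the medium-chain dehydrogenase *ACADM*, the lipase *LIPE* and the droplet coat gene *PLIN2* were 1.38- to 2.03-fold higher relative to the other transcripts of an array. When the poly-A controls set the scale, *ELOVL7* differed by 0.09 on the log2 scale and the other 4 by -0.01 to -0.47, none passed as higher, and *PLIN2* passed as lower. Of the 93 probe sets, 46 of 41 genes gave values that varied, meaning that their 10 values spanned at least 0.01 on the log2 scale. The authors' summary method, FARMS, returns nearly one value on all arrays where the probes of a set share no signal. A gene said here not to vary was therefore not shown to be unchanged. Of the 46 that varied, 20 fell, 10 rose and 16 did not pass limma's test at an adjusted p under 0.05 over all probe sets. The 20 stand for 19 genes, and 12 of the varying genes had no probe set that passed.

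The share of probe sets that varied and passed at this threshold was 32.3% of the members and 25.9% over the whole array. Lower ones made up 21.5% of the members and 12.5% of the array, and higher ones 10.8% and 13.4%. Among the probe sets that varied, the share that passed in either direction was 65.2% for the members and 65.7% for all, so the number of members that passed is close to the background. The share of lower calls was 43.5% of varying members and 31.7% of all varying probe sets, and that of higher calls 21.7% and 34.0%. At the stricter adjusted p of 0.0001, 10 members fell by limma's test and none rose (at an unadjusted p under 0.05, 31 of the 46 passed in either direction). Over the array 5.70% varied and passed it, 4.77% lower and 0.937% higher. Of varying probe sets, 21.7% of the members and 12.1% of all were lower at this threshold, 0 and 2.38% higher, and 14.5% of all passed in either direction. The 10 were *DGAT2*, *ECI2*, *ACOT8*, 1 probe set of *FABP5*, *ACAA1*, *ACSL5*, *ACOT9*, *DGAT1*, *ECHS1* and *HADHA*. The median log2 difference of the varying members was -0.33, against 0.18 over all varying probe sets. A further 6 member probe sets passed at 0.05 without varying, with log2 differences of at most 3.0e-08, and are not counted as having changed. All 5 IVM arrays lay below all 5 immature arrays for 19 members and above them for 8, 58.7% of the varying members together. Over the array, 11.5% of probe sets varied and lay below, 10.6% above and 22.2% either way, which is 29.3%, 27.0% and 56.3% of the varying ones.

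**Figure D1:**
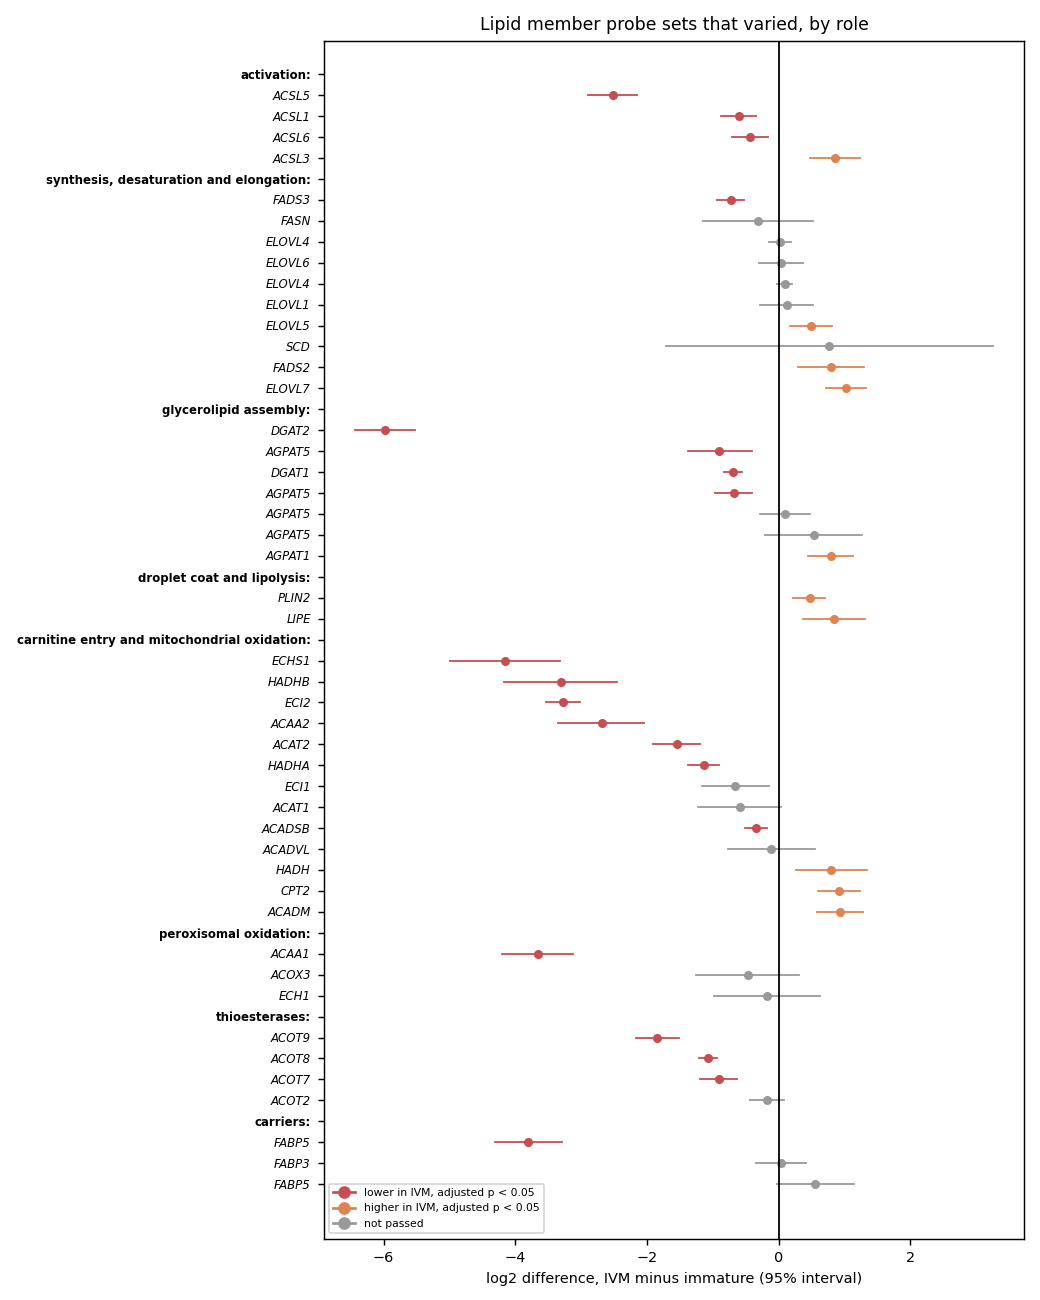
Log2 difference of IVM minus immature oocytes (x axis, points, with 95% intervals from limma as lines) for the 46 member probe sets that varied, grouped by role on the y axis. Differences run from -5.98 for *DGAT2* to 1.02 for *ELOVL7*, and the points right of 0 lie at or left of 0.09 after centring on the poly-A controls.

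Array-wide values bear on every difference below. The deposited values were quantile normalized, and the median of all probe sets lay between 7.04 and 7.10 on all arrays. The poly-A control transcripts are meant to be added to the RNA before amplification, and the methods do not mention them. They were at 7.73 to 8.23 on the IVM arrays and 6.85 to 7.24 on the immature arrays (mean of 27 probe sets, log2). Their mean on the immature arrays was 7.02, beside 7.07 for the median of all probe sets, and whether they lay above background was not tested. The mean of the hybridization controls was also higher on the IVM arrays, by 0.90, with immature replicates 4 and 5 in the IVM range. Whether the poly-A scale follows the amount of RNA was not tested. Centring on the poly-A controls moves the median of all probe sets by -0.94. None of the 10 members that rose then passed as higher, 9 of the 10 differences were below 0 and that of *ELOVL7* was 0.09. Of the 9, *PLIN2* (-0.47, adjusted p = 0.0197 from limma) and *ELOVL5* (-0.44, adjusted p = 0.0430) passed as lower on that scale. "Rose" and "higher" therefore refer to the quantile-normalized scale, that is, relative to the other transcripts of the same array. Of the members that fell, *DGAT2*, *ECI2*, *FADS3*, *ACSL6*, *ACAA2*, *ACSL5*, 1 probe set of *AGPAT5* and *ACAA1* had the lowest IVM means, 5.42 to 7.04. These lay below the median of the IVM arrays, 7.06, and whether they lie above background was not tested. Their folds are therefore ratios of summaries. Labelling starts at the poly(A) tail, so the amount of a transcript and the length of its tail cannot be told apart. A pool gives 1 value, so less RNA of a gene in each oocyte and fewer oocytes that carry it cannot be told apart either.

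The arrays were checked for oocyte and somatic transcripts. All 8 of the 16 listed oocyte markers that were found varied, and 5 of them fell, with a summed level of 14.50 to 15.24 (log2) on the IVM arrays and 16.00 to 16.47 on the immature arrays. Of 17 cumulus and granulosa markers found, 14 varied, on 20 probe sets of which 10 rose and 2 fell. Their summed level was 13.75 to 17.63 on the IVM arrays, highest on replicates 4 (17.63) and 2 (16.65), and 13.35 to 15.08 on the immature arrays, highest on replicates 3 and 4. *TNFAIP6* alone was at 12.27 to 17.13 on the IVM arrays (17.13 on replicate 4 and 16.25 on replicate 2) and at 3.27 to 5.95 on the immature arrays, so it made up most of the sum on IVM replicates 2, 3 and 4. All 10 probe sets that rose belong to *HAS2*, *PTGS2*, *PTX3*, *TNFAIP6* and *VCAN*, genes of cumulus expansion, and the 2 that fell to *CYP19A1* (-1.38) and *STAR* (-1.19), genes of steroid synthesis. Without the 5 expansion genes, a split made after the values were seen, the sum was 12.14 to 14.02 on the IVM arrays and 13.07 to 15.02 on the immature arrays, none of its probe sets passed as higher, and the order of the arrays within each group was the same. *FOXL2*, *LHCGR* and *CD44* did not vary. Of 7 theca and stroma markers, 4 varied and 3 passed as higher, *LUM* by 4.37, *DCN* by 1.79 and *COL3A1* by 0.01. The summed level of the 7 was 10.16 to 12.52 on IVM and 9.40 to 9.77 on immature arrays. None of the 7 endothelial and blood or the 3 adipocyte markers found varied. IVM replicate 4 was the highest or the lowest IVM array for 87.0% of the varying members and for 74.5% of all varying probe sets. Hybridization controls were at 10.75 to 11.22 on the IVM arrays, at 10.85 and 10.75 on immature replicates 4 and 5, and at 9.38 to 9.73 on immature replicates 1, 2 and 3. With only immature replicates 4 and 5 against the 5 IVM arrays, 14 members were still lower and 2, *ELOVL7* and *CPT2*, still higher. With fewer arrays, a difference of the same size is less likely to pass. The rises that no longer passed were 0.56 (*PLIN2*) to 0.99 (*ACSL3*) in this comparison. Only that of *ACADM* was smaller than with all arrays, 0.74 against 0.93.

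Acyl-CoA synthetases attach coenzyme A to fatty acids, without which they can be neither stored nor burned. Of 8 such genes on the array, 4 varied, and all 4 passed, 3 lower and 1 higher. *ACSL5*, a long-chain synthetase of mitochondria and endoplasmic reticulum, was at 7.01, 6.76, 7.11, 6.59 and 7.17 (log2 values, replicates 1 to 5) in IVM oocytes, against 9.49, 9.66, 9.16, 9.19 and 9.77 in immature oocytes. The groups lay more than 1 apart on the log2 scale, and *ACSL5* fell by 2.52 (standard error 0.16, adjusted p = 9.62e-06 from limma), a 5.76-fold difference. *ACSL3*, a synthetase of the endoplasmic reticulum and of nascent lipid droplets, was at 11.68, 11.60, 11.53, 10.92 and 11.64 in IVM oocytes, against 10.76, 10.91, 10.50, 10.42 and 10.55 in immature oocytes. Every IVM array was above every immature array, by as little as 0.01 for IVM replicate 4, and *ACSL3* rose by 0.85 (standard error 0.17, adjusted p = 0.00516). The other probe sets of *ACSL3* did not vary.

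*ACSL1*, the synthetase best known from liver, fat and heart, was at 8.29, 8.45, 7.95, 8.59 and 8.38 in IVM oocytes, against 8.86, 9.06, 8.89, 9.00 and 8.86 in immature oocytes. The groups did not overlap, and it fell by 0.60 (adjusted p = 0.00446 from limma). *ACSL6*, a synthetase abundant in brain, had the smallest difference of these genes, -0.44, and its groups overlapped, at 6.90, 6.89, 6.58, 6.84 and 6.44 in IVM oocytes against 6.88, 7.27, 7.22, 7.15 and 7.32 in immature oocytes. Its call (adjusted p = 0.0251) was lost with the collection day as a block (adjusted p = 0.121) and without IVM replicate 3 or immature replicate 2, 3, 4 or 5 (at most 0.0622). With the block over varying probe sets alone, *ACSL6* passed (adjusted p = 0.0323 from limma). The acetyl-CoA synthetases *ACSS1* and *ACSS2* and the medium-chain synthetases *ACSM1* and *ACSM2B* did not vary.

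Fatty acid synthesis, desaturation and elongation was the group with the most members that did not pass, 6 of 10 probe sets, with 1 lower and 3 higher and a median difference of 0.11. *ELOVL7*, an elongase of long saturated and polyunsaturated chains, was at 9.51, 9.43, 9.29, 8.83 and 9.54 in IVM oocytes, against 8.23, 8.40, 8.30, 8.22 and 8.34 in immature oocytes. No immature array reached the lowest IVM array, replicate 4, and *ELOVL7* rose by 1.02 (standard error 0.13, adjusted p = 5.90e-04 from limma), the one rise of at least 2-fold among the members. *ELOVL5*, which elongates polyunsaturated chains, had a mean of 12.23 ± 0.26 in IVM oocytes and 11.73 ± 0.17 in immature oocytes (SD, n = 5 each). It rose by 0.49 (adjusted p = 0.0268), with overlap of IVM replicate 4, and the call was lost without any 1 array other than IVM replicate 4 or immature replicate 2 (adjusted p at most 0.0639). Centred on the poly-A controls, *ELOVL5* passed as lower (-0.44, adjusted p = 0.0430).

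The desaturase genes *FADS2* and *FADS3*, which stand next to each other among protein-coding genes in the annotation of ARS-UCD2.0, differed in opposite directions. *FADS2*, the delta-6 desaturase, was at 7.28, 7.45, 7.61, 8.20 and 7.07 in IVM oocytes, against 6.84, 6.42, 7.00, 6.84 and 6.54 in immature oocytes. It rose by 0.79 (standard error 0.22, adjusted p = 0.0252 from limma), with IVM replicate 4 the highest array, and the call was lost without IVM replicate 3 or immature replicate 2 or 5 (at most 0.0623). *FADS3*, a sphingoid base desaturase, was at 6.55, 6.60, 6.76, 6.70 and 6.62 in IVM oocytes, against 7.42, 7.59, 7.17, 7.19 and 7.51 in immature oocytes. It fell by 0.73 (standard error 0.09, adjusted p = 4.47e-04), and the IVM arrays spanned less than the gap between the groups.

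*FASN*, the cytosolic fatty acid synthase, averaged 8.82 ± 0.76 in IVM oocytes and 9.14 ± 0.31 in immature oocytes (SD, n = 5 each), a difference of -0.32 with a 95% interval of -1.15 to 0.52. *SCD*, the delta-9 desaturase, had the widest spread of all members. Chosen after its values were seen, it was at 10.09, 11.16, 10.83, 12.79 and 9.05 in IVM oocytes, against 10.29, 6.84, 11.52, 11.81 and 9.61 in immature oocytes. Its difference of 0.77 had a 95% interval of -1.71 to 3.25, so this array comparison bounds a change in *SCD* only loosely. On the IVM arrays *SCD* ran in the same order as the summed cumulus and granulosa markers, replicates 4, 2, 3, 1 and 5, and on the immature arrays it was highest on replicates 4 and 3 and lowest on replicate 2, as the markers were highest on 3 and 4 and lowest on 2.

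The smallest difference of this group was that of *ELOVL4*, which makes very long chains. Its 2 probe sets differed by 0.02 (95% interval -0.15 to 0.19) and 0.09 (-0.03 to 0.21). On the first, the IVM arrays were at 8.04, 7.91, 7.80, 7.86 and 8.09, against 7.94, 8.06, 7.93, 7.74 and 7.94 on the immature arrays, with full overlap. *ELOVL1* (0.12) and *ELOVL6* (0.03) did not pass either, and the carboxylases *ACACA* and *ACACB*, which make malonyl-CoA, did not vary.

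Glycerolipid assembly joins acyl chains to glycerol phosphate and diacylglycerol. *DGAT2*, an acyltransferase of the endoplasmic reticulum and lipid droplet that makes triacylglycerol, was at 5.51, 5.20, 5.47, 5.18 and 5.74 in IVM oocytes, against 11.39, 11.69, 11.72, 10.79 and 11.38 in immature oocytes. Its difference was the largest of all members, and the gap between the groups was many times the spread within either. No other of the 24016 probe sets had a lower mean on the IVM arrays, and detection calls were not used here, so whether the IVM values lie above background was not tested and the fold is a ratio of summaries, not of measured amounts. *DGAT2* fell by 5.98 (standard error 0.20, 95% interval of the difference -6.43 to -5.52, adjusted p = 2.39e-07 from limma). *DGAT1*, an unrelated enzyme for the same reaction, was at 7.65, 7.77, 8.00, 7.90 and 7.81 in IVM oocytes, against 8.54, 8.51, 8.53, 8.50 and 8.54 in immature oocytes. It fell by 0.70 (standard error 0.06, adjusted p = 4.44e-05), a 1.62-fold difference, with the immature arrays within 0.04 of each other. The 95% interval for *DGAT1* was -0.83 to -0.56 and does not meet that of *DGAT2*. Each interval covers only the spread between arrays of 1 probe set, not differences in response between probe sets.

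*AGPAT1*, which acylates lysophosphatidic acid, was at 8.46, 8.19, 8.92, 8.50 and 8.86 in IVM oocytes, against 8.02, 7.77, 7.70, 7.72 and 7.77 in immature oocytes. It rose by 0.79 (standard error 0.15, adjusted p = 0.00387 from limma), without overlap. *AGPAT5*, a mitochondrial member of the same family, was measured by 4 varying probe sets that did not move together. One was at 8.22, 8.48, 7.58, 8.57 and 7.78 in IVM oocytes, against 8.90, 8.80, 8.96, 9.27 and 9.18 in immature oocytes, and fell by 0.90 (adjusted p = 0.0126). Another fell by 0.68 (adjusted p = 0.00271), and the remaining ones had differences of 0.54 (adjusted p = 0.277) and 0.10 (adjusted p = 0.732). The last of these overlapped fully, at 7.21, 7.45, 7.09, 7.82 and 7.06 in IVM oocytes against 7.21, 6.93, 7.32, 7.47 and 7.17 in immature oocytes. A further probe set of *AGPAT5* did not vary. A change in *AGPAT5* as a gene is therefore not settled by these values. *GPAM*, which starts the pathway in mitochondria, *LPIN1*, a phosphatidate phosphatase, and *AGPAT2*, *AGPAT3* and *AGPAT4* did not vary.

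Both varying genes of the droplet coat and of lipolysis, *PLIN2* and *LIPE*, were higher in IVM oocytes on the quantile-normalized scale and had differences of -0.47 and -0.10 when centred on the poly-A controls, where *PLIN2* passed as lower (adjusted p = 0.0197 from limma) and *LIPE* did not pass (adjusted p = 0.702). *PLIN2*, the perilipin that coats droplets in most cells, was at 11.01, 11.13, 11.31, 10.90 and 11.41 in IVM oocytes, against 10.60, 10.78, 10.85, 10.61 and 10.59 in immature oocytes. It rose by 0.47 (standard error 0.11, adjusted p = 0.0110 from limma), with the lowest IVM array 0.05 above the highest immature array. *LIPE*, the hormone-sensitive lipase, was at 10.15, 9.93, 10.08, 9.29 and 10.54 in IVM oocytes, against 9.11, 9.22, 9.21, 9.18 and 9.07 in immature oocytes. It rose by 0.84 (standard error 0.20, adjusted p = 0.0147), a call that was lost with the collection day as a block (adjusted p = 0.0617), and 3 other probe sets of *LIPE* did not vary. With the block over varying probe sets alone, *LIPE* passed (adjusted p = 0.00848 from limma). *PLIN3*, *PLIN5*, the triglyceride lipase *PNPLA2* and the phospholipase *PNPLA6* did not vary.

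**Figure D2:**
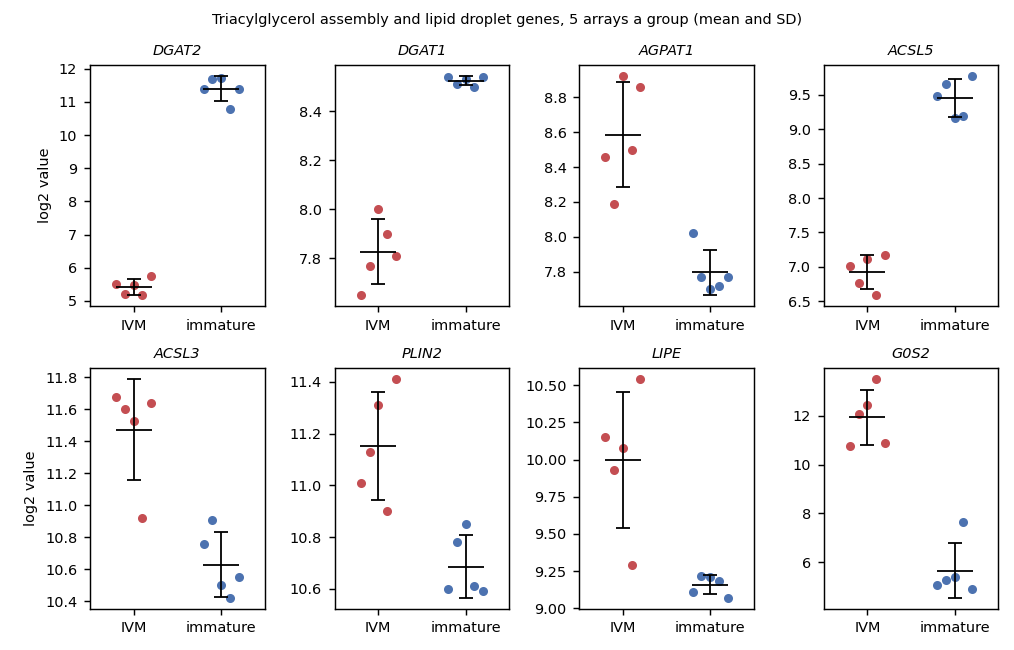
Log2 value on each of the 5 IVM arrays (left in each panel) and the 5 immature arrays (right), with mean and SD as black bars, for genes of triacylglycerol assembly, acyl-CoA synthesis and lipid droplets, each panel on its own y axis. *DGAT2* lies near 5.42 on the IVM arrays and 11.40 on the immature arrays, *G0S2* the other way round, and the rises of *AGPAT1*, *ACSL3*, *PLIN2* and *LIPE* are below 0 when the poly-A controls set the scale.

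Carnitine entry and mitochondrial oxidation held the largest group, 13 varying genes of 19, of which 7 fell, 3 rose and 3 did not pass. The group follows symbol families and not the place of each enzyme in the cell. It holds the cytosolic *ACAT2*, without which 6 fell, and *ACADSB*, an enzyme of isoleucine breakdown. Whether *ECI2*, also counted here, belongs to mitochondria or peroxisomes was not examined. The rises were those of *CPT2*, *ACADM* and *HADH*. The hydratase *ECHS1*, both trifunctional protein subunits, the thiolases *ACAA2* and *ACAT2*, the isomerase *ECI2* and the dehydrogenase *ACADSB* were lower.

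*CPT2*, which turns acylcarnitine back into acyl-CoA inside mitochondria, averaged 9.31 ± 0.17 in IVM oocytes and 8.39 ± 0.26 in immature oocytes (log2 value, SD, n = 5 each). It rose by 0.92 (standard error 0.14, adjusted p = 0.00129 from limma). *ACADM*, the medium-chain acyl-CoA dehydrogenase, averaged 9.91 ± 0.17 in IVM oocytes and 8.98 ± 0.29 in immature oocytes and rose by 0.93 (adjusted p = 0.00195). Neither gene's groups overlapped, and both differences were -0.01 after centring on the poly-A controls. *ACADVL*, the very-long-chain dehydrogenase, was at 7.80, 8.30, 7.66, 9.10 and 7.53 in IVM oocytes, against 8.07, 8.13, 8.26, 8.16 and 8.31 in immature oocytes. The IVM arrays lay on both sides of the immature arrays, and the difference of -0.11 had an interval of -0.77 to 0.56. *ACADSB*, a short, branched-chain dehydrogenase of isoleucine breakdown, fell by 0.34 (adjusted p = 0.00730), and *ACADL*, *ACADS* and *CPT1B* did not vary.

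*ECHS1*, the short-chain hydratase of the second step, was at 7.31, 8.36, 7.83, 9.09 and 7.16 in IVM oocytes, against 12.19, 11.87, 12.00, 12.31 and 12.16 in immature oocytes. It fell by 4.15 (standard error 0.36, adjusted p = 5.54e-05 from limma), and the IVM arrays spread more widely, with an SD of 0.79, than the immature arrays, with an SD of 0.17. IVM replicates 4 and 2 were the highest for *ECHS1*, and the 5 arrays followed the order of the summed cumulus and granulosa markers.

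The trifunctional protein of the inner membrane carries the later steps for long chains, with alpha subunits from *HADHA* and beta subunits from *HADHB*, genes that are next to each other in the annotation of ARS-UCD2.0. *HADHB* was at 7.40, 8.04, 7.25, 9.22 and 7.39 in IVM oocytes, against 10.91, 11.35, 11.25, 11.06 and 11.30 in immature oocytes. It fell by 3.31 (standard error 0.37, 95% interval -4.17 to -2.45 for the difference, adjusted p = 2.55e-04 from limma). *HADHA* averaged 7.96 ± 0.19 in IVM oocytes and 9.10 ± 0.13 in immature oocytes (SD, n = 5 each) and fell by 1.14 (standard error 0.10, interval -1.38 to -0.91, adjusted p = 6.76e-05). Both subunits were lower on every IVM array, and the intervals of their differences do not meet. Each interval covers the spread between arrays of 1 probe set, so whether the 2 transcripts fell by unlike amounts was not tested.

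*HADH*, the soluble dehydrogenase for short and medium chains, averaged 11.22 ± 0.53 in IVM oocytes and 10.42 ± 0.09 in immature oocytes (SD, n = 5 each). It rose by 0.80 (standard error 0.24, adjusted p = 0.0342 from limma). IVM replicate 4, at 10.35, lay among the immature arrays, and without it the difference was 1.02 (adjusted p = 4.10e-04). The call was lost without any 1 of the other arrays (adjusted p at most 0.0770) and with the collection day as a block (adjusted p = 0.0570). With the block over varying probe sets alone, *HADH* passed (adjusted p = 0.00768 from limma).

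*ACAA2*, the mitochondrial thiolase of the last step, was at 6.51, 7.14, 6.27, 7.69 and 6.26 in IVM oocytes, against 9.33, 9.66, 9.39, 9.36 and 9.60 in immature oocytes. It fell by 2.69 (standard error 0.29, adjusted p = 1.76e-04 from limma), without overlap. *ECI2*, an isomerase that shifts double bonds so that unsaturated chains can be oxidized, was at 6.37, 6.43, 6.19, 6.84 and 6.45 in IVM oocytes, against 9.70, 9.71, 9.85, 9.76 and 9.59 in immature oocytes. The arrays of each group were close together, and *ECI2* fell by 3.27 (standard error 0.11, adjusted p = 3.08e-07), a 9.63-fold ratio of summaries. Of all varying probe sets, 2.14% had a lower mean on the IVM arrays. *ECI1*, the mitochondrial isomerase, had a difference of -0.66 that did not pass (adjusted p = 0.0606). Immature replicate 2, at 7.47, lay among the IVM arrays, and IVM replicate 4, at 7.98, was the highest of its group. The difference passed without either array (adjusted p = 0.00927 and 0.0309 from limma).

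*ACAT1*, the mitochondrial acetoacetyl-CoA thiolase of ketone body and isoleucine metabolism, had a difference of -0.59 (adjusted p = 0.157). *ACAT2*, a cytosolic thiolase that feeds sterol synthesis rather than oxidation, fell by 1.55 (standard error 0.16, adjusted p = 1.29e-04 from limma). *ECHDC1*, *ECHDC2* and *ECHDC3* did not vary.

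**Figure D3:**
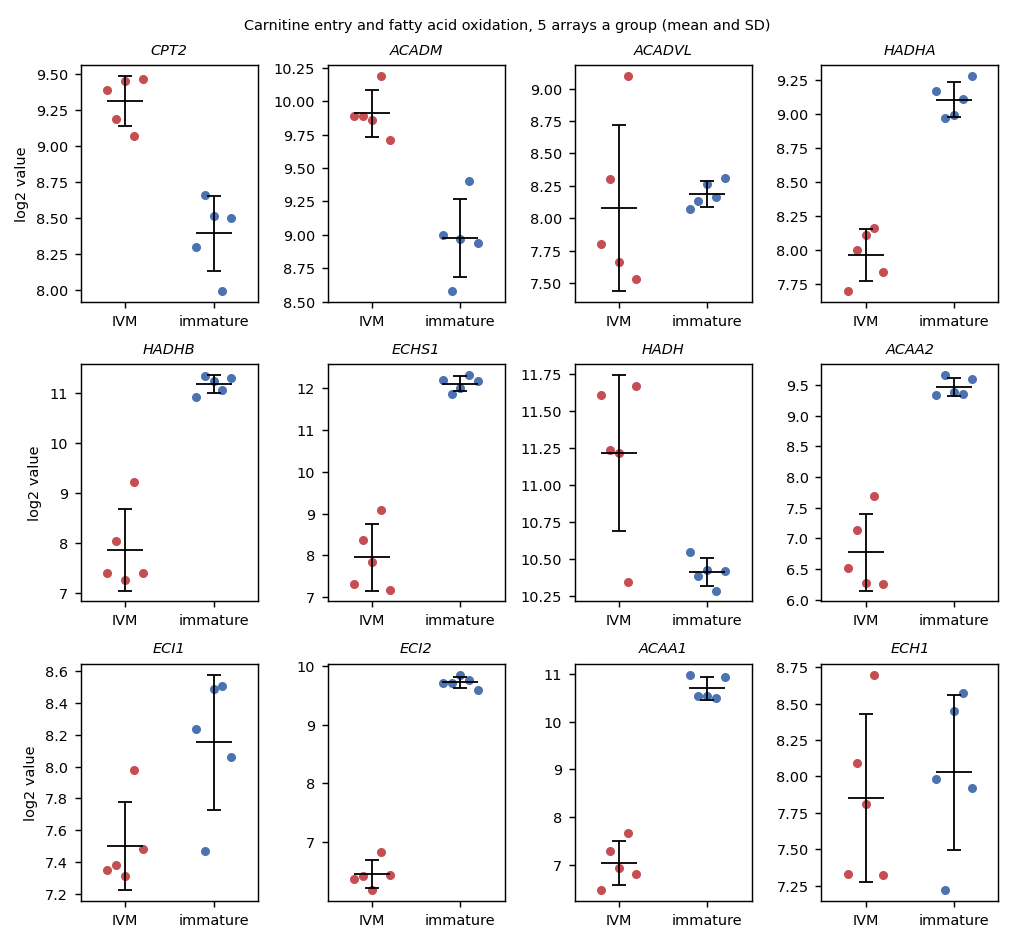
Log2 value on each of the 5 IVM arrays (left in each panel) and the 5 immature arrays (right), with mean and SD as black bars, for 12 genes of carnitine entry, mitochondrial and peroxisomal oxidation, each panel on its own y axis. *ECHS1*, *HADHB*, *ECI2*, *ACAA2* and *ACAA1* are lower on all 5 IVM arrays, while *CPT2* and *ACADM* are higher on this scale and at -0.01 when centred on the poly-A controls.

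Among the genes grouped by symbol as peroxisomal, 3 of 4 varied and 1 fell, and *ECI2* was counted in the group above. *ACAA1*, the peroxisomal thiolase, was at 6.47, 7.29, 6.93, 7.67 and 6.80 in IVM oocytes, against 10.99, 10.53, 10.54, 10.50 and 10.93 in immature oocytes. It fell by 3.66 (standard error 0.23, adjusted p = 8.38e-06 from limma), a 12.7-fold difference. *ECH1*, an isomerase of dienoyl-CoA found in peroxisomes and mitochondria, was at 7.33, 8.09, 7.81, 8.70 and 7.32 in IVM oocytes, against 7.98, 7.22, 8.45, 8.57 and 7.92 in immature oocytes. These ranges overlapped almost wholly, and the difference of -0.18 had an interval of -0.98 to 0.63. Another probe set of *ECH1* did not vary. *ACOX3*, an oxidase of branched chains, had a difference of -0.47 (adjusted p = 0.375), and *ACOX2* did not vary.

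Acyl-CoA thioesterases free fatty acids from coenzyme A. Of 4 genes that varied, 3 fell and none rose, and the median difference was -0.99. *ACOT9*, a mitochondrial thioesterase, was at 9.56, 9.90, 9.15, 9.36 and 9.80 in IVM oocytes, against 11.41, 11.49, 11.36, 11.31 and 11.37 in immature oocytes. It fell by 1.84 (standard error 0.14, adjusted p = 2.62e-05 from limma). *ACOT8*, the peroxisomal thioesterase, was at 7.44, 7.37, 7.41, 7.58 and 7.43 in IVM oocytes, against 8.53, 8.46, 8.42, 8.69 and 8.50 in immature oocytes. Both groups were tight, and *ACOT8* fell by 1.07 (standard error 0.06, adjusted p = 3.93e-06). Another probe set of *ACOT8* did not vary.

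*ACOT7*, a cytosolic thioesterase abundant in brain, was at 7.09, 7.29, 7.41, 7.70 and 7.59 in IVM oocytes, against 8.47, 8.39, 8.37, 8.16 and 8.24 in immature oocytes. It fell by 0.91 (adjusted p = 6.50e-04 from limma), without overlap. Another probe set of *ACOT7* did not vary. *ACOT2*, a mitochondrial thioesterase, was at 7.86, 7.70, 7.41, 7.40 and 7.79 in IVM oocytes, against 7.70, 7.95, 7.72, 7.74 and 7.91 in immature oocytes. The groups overlapped, and its difference was -0.17 (adjusted p = 0.296). *ACOT4* and *ACOT13* did not vary.

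Fatty acid binding proteins carry fatty acids through the cytoplasm. *FABP3*, the heart type, was at 10.79, 10.82, 11.11, 10.32 and 11.20 in IVM oocytes, against 10.68, 10.99, 10.69, 10.85 and 10.89 in immature oocytes. With full overlap, the difference was 0.03, with an interval of -0.35 to 0.41. *FABP1*, *FABP2*, *FABP4*, *FABP6* and *FABP7*, whose names are tied to liver, intestine, fat, ileum and brain, did not vary.

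*FABP5*, the epidermal type, had 2 varying probe sets that disagreed. The first was at 9.16, 8.81, 9.12, 8.08 and 9.16 in IVM oocytes, against 12.63, 12.91, 12.72, 12.40 and 12.68 in immature oocytes, and fell by 3.80 (standard error 0.22, interval of the difference -4.31 to -3.29, adjusted p = 5.49e-06 from limma). The second was at 11.34, 10.33, 10.67, 10.01 and 10.93 in IVM oocytes, against 10.26, 10.46, 9.88, 9.85 and 10.03 in immature oocytes. It had a difference of 0.56 (interval -0.03 to 1.15, adjusted p = 0.151), so the first gave a 14.0-fold lower signal and the second overlapping groups. With array weights the second passed as higher (adjusted p = 0.0314 from limma), opposite to the first. Over all genes with several varying probe sets, 762, the differences lay more than 4 apart for 30, or 3.94%. Where on the transcript each probe set lies is not given in the sources used here, so the direction of *FABP5* as a gene is not settled.

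**Figure D4:**
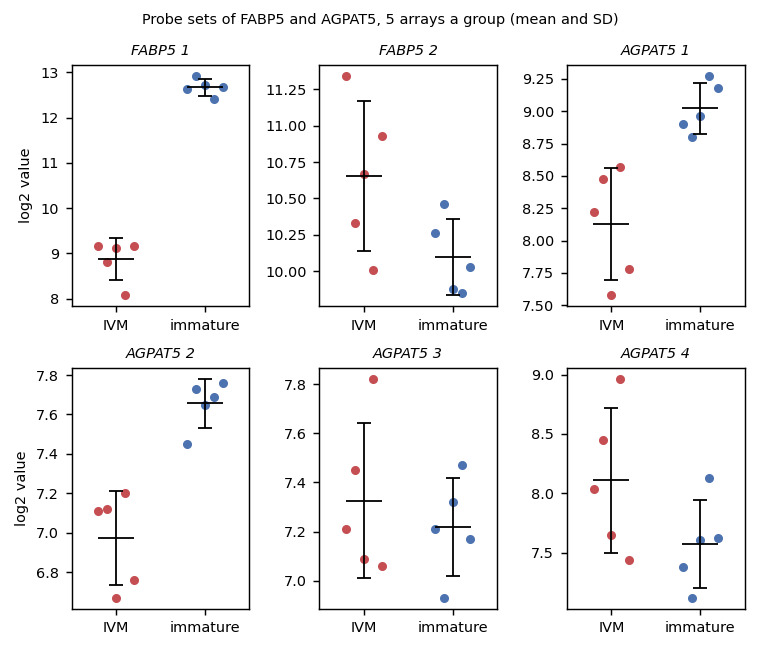
Log2 value on each of the 5 IVM arrays (left in each panel) and the 5 immature arrays (right), with mean and SD as black bars, for the 2 varying probe sets of *FABP5* and the 4 of *AGPAT5*, numbered by increasing difference. The first probe set of *FABP5* is lower on every IVM array and the second overlaps, and 2 of the 4 probe sets of *AGPAT5* are lower without overlap.

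The spread within groups was itself uneven. The median SD of the varying members was 0.31 on the IVM arrays and 0.17 on the immature arrays, and it was larger on the IVM arrays for 37 of 46, or 80.4%, near the 77.7% of all varying probe sets. On the IVM arrays, *ACAT1*, *ACOX3*, *ECH1*, *ECHS1*, *FASN* and *SCD* ran in exactly the order of the summed cumulus and granulosa markers, and *DGAT2* and *LIPE* in exactly the opposite order. These 8 are 17.4% of the varying members, beside 16.5% of all varying probe sets. In both groups, *ACOX3*, *ECH1*, *ELOVL6*, *FADS2*, *FASN*, *SCD* and 1 probe set of *AGPAT5* kept the order of the markers with at most 1 neighbouring pair of arrays exchanged. They are 15.2% of the varying members, beside 6.52% of all varying probe sets, and of these 7 probe sets only that of *FADS2* passed the test between the groups. *FADS2*, which had its highest value on IVM replicate 4, followed the order of the markers exactly on the immature arrays. The part of somatic RNA in these values was not tested. Without IVM replicate 4, the array with the highest markers, 22 members were lower, the original 20 among them, and 11 higher, with the original 10 among them.

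**Figure D5:**
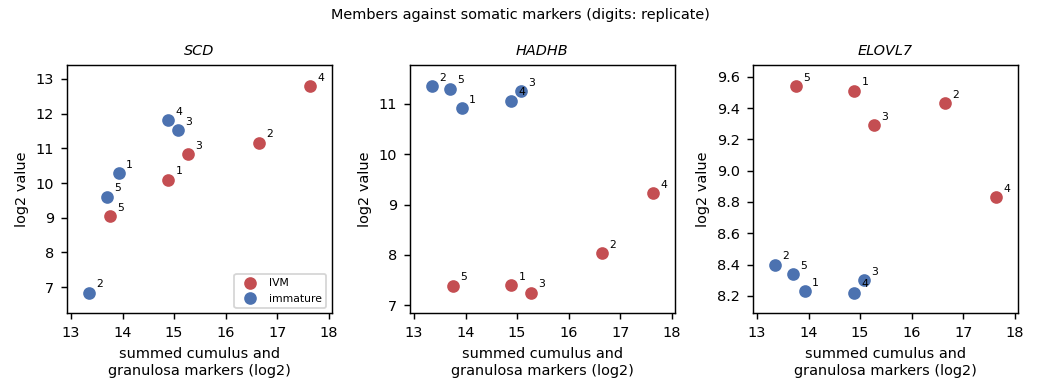
Log2 value of *SCD*, *HADHB* and *ELOVL7* (y axis) against the summed level of 17 cumulus and granulosa markers (x axis, log2) on the 5 IVM and 5 immature arrays, with the replicate number beside each point. IVM replicate 4 has the highest marker level, 17.63, with the highest *SCD* (12.79), the highest *HADHB* of the IVM arrays (9.22) and the lowest *ELOVL7* of the IVM arrays (8.83), whose rise shrinks to 0.09 when centred on the poly-A controls.

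Genes that work beside the members were counted from a list of their partners and regulators. Of 64 such genes found on the array, 37 varied, on 45 probe sets, of which 14 fell, 15 rose and 16 did not pass, with a median difference of 0.22. Of all 9460 varying probe sets, 2997 (31.7%) fell and 3218 (34.0%) rose, with a median of 0.18, so these partner counts are close to the background. The same shares stand beside the smaller groups below. Among 14 varying probe sets of droplet and glycerolipid partners, 8 rose and 4 fell. *G0S2*, an inhibitor of the lipase PNPLA2, was at 10.77, 12.07, 12.43, 13.50 and 10.90 in IVM oocytes, against 5.08, 5.26, 5.40, 7.63 and 4.91 in immature oocytes. It rose by 6.28 (standard error 0.71, adjusted p = 2.53e-04 from limma) and by 5.34 when centred on the poly-A controls, and within each group the highest array was replicate 4. On these arrays the summed cumulus and granulosa markers were 17.63 (IVM replicate 4) and 14.88 (immature replicate 4), and their part in the rise was not tested.

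*HSD17B11*, a short-chain dehydrogenase found on lipid droplets, rose by 2.10 (adjusted p = 0.00202 from limma). *CIDEA*, which promotes droplet fusion, fell by 1.23 (adjusted p = 6.75e-06), and *MOGAT1*, a monoacylglycerol acyltransferase, fell by 1.30 (adjusted p = 0.00213). *LPCAT3*, which remodels phospholipids, fell by 1.85 (adjusted p = 7.05e-04), and *TECR*, the reductase that ends each elongation cycle, fell by 1.67 (adjusted p = 6.82e-04). *MBOAT1*, an acyltransferase of lysophospholipids, had 1 probe set that rose by 1.12 and 1 that fell by 0.95. When centred on the poly-A controls, the rises of *HSD17B11* and *MBOAT1* were 1.17 and 0.19. The other droplet and glycerolipid partners that rose were below 0 on that scale, except *G0S2*. They were *AUP1* (-0.47), *FAF2* (-0.06), *GPAT4* (-0.29 and -0.72) and *RAB18* (-0.18).

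Of 10 varying probe sets of oxidation partners, 4 fell and 2 rose, and none differed by more than 0.79. The subunits of the electron transfer flavoprotein, which takes electrons from the acyl-CoA dehydrogenases, differed in direction, with *ETFA* higher by 0.62 (adjusted p = 0.00621 from limma) and *ETFB* lower by 0.38 (adjusted p = 0.00519). The rise of *ETFA* is a difference of -0.32 when centred on the poly-A controls. *SLC25A20*, the carnitine carrier, did not pass on either of its probe sets (0.20 and 0.06).

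Among 14 varying probe sets of regulators, 4 fell and 5 rose. *PRKAG1*, a regulatory subunit of the AMP-activated kinase, fell by 2.32 (adjusted p = 2.23e-05 from limma), and *PPARG*, a nuclear receptor of fat storage, fell by 0.93 (adjusted p = 6.70e-04). *NR1H2*, a liver X receptor, rose by 1.32 (adjusted p = 0.00487) and by 0.39 when centred on the poly-A controls. *INSIG2*, which holds sterol-regulated factors in the endoplasmic reticulum, had probe sets that differed by 1.22, 0.57 and -0.48, all of which passed, the last not with the collection day as a block (adjusted p = 0.0600). Centred on the poly-A controls, they differed by 0.29, -0.37 and -1.42. Among uptake and acyl-CoA binding genes, 1 of 5 varying probe sets passed, a lower one of *ACBD3* (-0.72, adjusted p = 0.0307, and 0.0570 with the block), while *CD36*, *LPL* and *VLDLR* did not pass.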

How the data were processed

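Each of 10 Affymetrix arrays held RNA of 1 oocyte pool, 5 IVM and 5 immature. The deposited log2 values are FARMS summaries, which the authors made from GCOS output with quantile normalization. FARMS returns nearly one value on all arrays where the probes of a set share no signal. Of 24016 probe sets without the 112 controls, 9460 varied (span at least 0.01) and 14556 did not. Symbols came from the platform's annotation, with 13263 updated by gene identifier, 2 by accession and 27 kept. The 86 probe sets with several genes and the 10638 unnamed here were tested and not named.

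IVM was compared with immature by lmFit and eBayes of limma 3.58.1 (R 4.3.3) on all 24016 probe sets, with Benjamini-Hochberg adjustment over them and an adjusted p under 0.05. The 0.0001 of the methods, used there with SAM, was a second threshold. Folds are powers of 2 of log2 differences. The fit was tested on simulated data. Python 3.11.15 made the tables (pandas 2.3.3, numpy 2.4.6, scipy 1.17.1) and the figures (matplotlib 3.10.9). The number of arrays limits the precision, and p-values measure the spread between pools.

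Members, lists and tests were chosen with earlier results of these data known. Each array is given for members whose groups did not overlap (up to 4 a role, by size of difference) and for the smallest difference of a role. *SCD* and *G0S2* were added after their values were seen. Alternatives were the collection day as a block, varying probe sets alone, centring on poly-A controls or on the median of varying probe sets, array weights, a trended robust prior, immature replicates 4 and 5 alone, and leaving out each array. The block was also fitted over varying probe sets alone. The methods state that replicates are days of collection, and equal numbers were taken as a pair of one day. Across probe sets, deviations from the group means correlated between same-numbered arrays with r = 0.149, -0.343, 0.0818, 0.676 and 0.352 (replicates 1 to 5), which does not show a shared day for each number. The paper's qPCR and inhibitor experiments were not analysed here.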

Additional observations from a re-analysis of the deposited data

Results flagged for a closer look

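Within a group of 5 arrays, 1 array stood far from the other 4 in 3 of 92 groups looked at (3.26%), where chance marks about 1 in 20. IVM replicate 4 was at 7.98 for *ECI1*, with the other IVM arrays at 7.31 to 7.48, and at 10.92 for *ACSL3*, with the others at 11.53 to 11.68. Immature replicate 1 was at 8.02 for *AGPAT1*, with the other immature arrays at 7.70 to 7.77. The array with the highest summed cumulus and granulosa markers was IVM replicate 4 (17.63), and their part was not tested.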

How the results depend on the processing

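Among the varying members, 20 lower and 10 higher calls became 35 and 0 when centred on the poly-A controls (82 and 0 of all 93 member probe sets, against 22 and 14), and 10 and 0 at an adjusted p under 0.0001. Probe sets that did not vary take on the shift of the controls, a difference of -0.94, from the centring itself. Their lower calls among the 82 follow from it and are not a result about those genes. With immature replicates 4 and 5 alone the 20 and 10 calls became 14 and 2, also for all 93, in a comparison with fewer arrays. With the replicate block over all probe sets, 19 and 8 varying members remained (20 and 9 of all 93), and the calls lost were those of *ACSL6*, *LIPE* and *HADH*, no other. With the block over varying probe sets alone, 22 and 11 passed, the original 20 and 10 among them. There *ACSL6* (adjusted p = 0.0323 from limma), *LIPE* (0.00848) and *HADH* (0.00768) passed, so their loss depends on the probe sets fitted with the block. Leaving out 1 array gave 19 to 22 lower and 7 to 11 higher varying members (20 to 24 and 9 to 14 of all 93). The other settings kept the varying counts within 1.5 times. Over the array, 3602 probe sets passed lower and 3732 higher, which became 20427 and 807 on the poly-A scale and 1155 and 234 at 0.0001. The 20427 likewise include probe sets that did not vary, whose shift is that of the controls. With immature replicates 4 and 5 alone there were 2177 and 1235.

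Centring on the poly-A controls turned the differences of *CPT2* (-0.01), *ACADM* (-0.01), *ACSL3* (-0.09), *LIPE* (-0.10), *HADH* (-0.13), *AGPAT1* (-0.14), *FADS2* (-0.14), *SCD* (-0.17), the second probe set of *FABP5* (-0.38), *AGPAT5* (-0.40 and -0.83), *ELOVL5* (-0.44), *PLIN2* (-0.47), *ELOVL1* (-0.81), *ELOVL4* (-0.85 and -0.92), *ELOVL6* (-0.90) and *FABP3* (-0.91), since it lowers every difference by 0.94. Of the members that rose, *PLIN2* (adjusted p = 0.0197 from limma) and *ELOVL5* (0.0430) then passed as lower. *ELOVL6* also turned with array weights (-0.06), and *ELOVL6* (-0.04) and *FABP3* (-0.02) with immature replicates 4 and 5 alone. The median of varying probe sets as the centre ended the call of *ACADSB* (-0.24, adjusted p = 0.102 from limma), and array weights that of *ACSL6* (adjusted p = 0.0642).

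Leaving out 1 array also turned differences that had not passed. They ran from -0.07 to 0.09 for *ELOVL6*, from -0.06 to 0.16 for *FABP3*, from -0.03 to 0.05 and from -0.02 to 0.17 for 1 probe set each of *ELOVL4* and *AGPAT5*, from -0.02 to 1.22 for *SCD* and from -0.36 to 0.03 for *ACADVL*. *ECI1* passed over varying probe sets alone (adjusted p = 0.0178 from limma) and with array weights (0.0098). *ACAT1* passed as lower with array weights (0.0285), without IVM replicate 4 (0.0364) and with the block over varying probe sets (0.0264). The second probe set of *FABP5* passed as higher in the same settings (0.0314, 0.0479 and 0.0437). The cause was not tested.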
